A study of Mus musculus with 12 samples.

Results

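The 10 genes described here, Spp1, Lgals3, Trem2, Gpnmb, Cd9, Itgax, Cd68, Dcstamp, Cd200r1 and Rgs1, mark the lipid-associated macrophages of fat, and they were taken by symbol from the 55536 genes of the count files. They are known as markers of lipid-laden macrophages in obese fat, and the set was chosen by name with the measured KI-HFD against WT-NC differences of these libraries in both depots already known. Their values in those comparisons are therefore a description and no independent evidence of a direction. All 10 passed the filter on low counts in both depots. In BAT, Itgax, Dcstamp, Cd200r1 and Rgs1 had too few counts in KI-HFD to pass through those libraries and passed through WT-NC, so their difference there is partly set by the filter.

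Poly-A RNA was sequenced from brown fat (BAT), which burns lipid for heat, and inguinal white fat (IWAT), a store under the skin, of C57BL/6 mice, with 3 libraries in each of 4 groups. KI-HFD libraries carry the genotype label Adv-CGRPalpha+/- and come from mice on a high-fat diet. WT-NC libraries come from wild-type mice on normal chow. Genotype and diet change together between the groups and cannot be told apart, and the labels give no age and do not spell out the parts of the genotype's name. Each library is treated as 1 animal, which the series text states only as a number per group, so p-values measure the spread between these libraries. By its title the study is about sensory neurons with the peptide CGRP, heat production and obesity from diet, and the comparison in each depot is of KI mice on the high-fat diet with wild types on chow.

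Macrophages in expanding fat gather around dying adipocytes, take up their lipid and switch on a programme of lysosomal, lipid-handling and surface genes. TREM2, a lipid-sensing receptor that signals through the adaptor TYROBP (DAP12), is needed for that programme in mice. Resident macrophages of lean fat express a different set, with scavenger and mannose receptors such as MRC1 and LYVE1.

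The libraries held 17.7 to 20.9 M counts in BAT KI-HFD, 17.4 to 22.6 M in BAT WT-NC, 21.1 to 22.5 M in IWAT KI-HFD and 21.9 to 23.5 M in IWAT WT-NC. The depot labels matched their markers, since 6 brown adipocyte genes led by Ucp1 summed to 13200 to 16191 CPM in BAT KI-HFD and 7598 to 11276 CPM in BAT WT-NC, against 39.4 to 139 and 58.5 to 91.2 CPM in the IWAT groups. Here and throughout, CPM are counts relative to library size after TMM scaling. Some libraries stood apart in genes of other cell types. Summed over 8 skeletal muscle genes, BAT KI-HFD held 2127 to 15820 CPM and BAT WT-NC 562 to 62631 CPM, with the lowest of these in replicate 3 and the highest in replicate 2. IWAT KI-HFD replicate 3 held 783 CPM of 12 lymphocyte genes, against 6.82 to 67.3 CPM in the other 11 libraries. IWAT WT-NC replicate 2 held 60.6 CPM of 6 epithelial and mammary genes, against 0 to 2.40 CPM elsewhere, and all 6 were at 0 in BAT KI-HFD. The part of these cells in the values of the 10 genes was not tested.

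RefSeq promoter windows (GRCm38.p6, 250 bases before to 50 after the start of transcription) were at hand for 7 of the 10 genes, with 2 windows for Spp1, which makes 8. They were searched on both strands for the letters TGANTCA, a loose form of the site that AP-1 factors bind, whose middle base is C or G, CACGTG, the E-box bound by MiT/TFE factors among others, and GAGGAA, the core bound by the macrophage factor PU.1. TGANTCA occurred in 4 of the 8 windows, in those of Gpnmb, Itgax, Cd68 and Trem2, and in 7.81% of all 32851 windows of that table. In Gpnmb, Itgax and Cd68, 3 of these 4, the middle base is C or G, and in Trem2 it is A, which is not the AP-1 site. GAGGAA occurred in 3 of the 8, against 28.3% of all windows, and CACGTG in 0 of the 8, against 7.15%. The 4 windows with TGANTCA are shown because they are what several of these promoters share in letters. A match describes the letters only and is no evidence of binding. They lie at chr6:49036268-49036567 on the plus strand (Gpnmb), chr7:128129300-128129599 on the plus strand (Itgax), chr11:69666121-69666420 on the minus strand (Cd68) and chr17:48346151-48346450 on the plus strand (Trem2). Each is written 5′ to 3′ along the gene, with capitals for TGANTCA and for GAGGAA or its reverse complement.
Gpnmb: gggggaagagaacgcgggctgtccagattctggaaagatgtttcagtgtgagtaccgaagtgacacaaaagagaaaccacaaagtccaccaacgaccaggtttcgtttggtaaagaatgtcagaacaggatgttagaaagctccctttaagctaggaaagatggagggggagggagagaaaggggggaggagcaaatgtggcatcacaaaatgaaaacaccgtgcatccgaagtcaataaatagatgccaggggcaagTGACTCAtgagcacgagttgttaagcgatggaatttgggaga
Itgax: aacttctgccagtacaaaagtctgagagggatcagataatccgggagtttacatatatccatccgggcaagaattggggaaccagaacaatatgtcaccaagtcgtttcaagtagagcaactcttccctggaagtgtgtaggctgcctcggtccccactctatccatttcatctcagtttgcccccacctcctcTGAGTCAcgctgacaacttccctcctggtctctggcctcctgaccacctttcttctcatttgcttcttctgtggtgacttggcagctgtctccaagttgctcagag
Cd68: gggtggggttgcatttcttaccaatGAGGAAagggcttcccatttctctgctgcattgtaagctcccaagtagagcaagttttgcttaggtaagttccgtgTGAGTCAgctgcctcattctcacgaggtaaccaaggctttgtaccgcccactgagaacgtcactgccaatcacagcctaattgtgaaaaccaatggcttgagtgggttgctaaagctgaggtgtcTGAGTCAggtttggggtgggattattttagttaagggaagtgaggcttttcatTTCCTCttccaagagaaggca
Trem2: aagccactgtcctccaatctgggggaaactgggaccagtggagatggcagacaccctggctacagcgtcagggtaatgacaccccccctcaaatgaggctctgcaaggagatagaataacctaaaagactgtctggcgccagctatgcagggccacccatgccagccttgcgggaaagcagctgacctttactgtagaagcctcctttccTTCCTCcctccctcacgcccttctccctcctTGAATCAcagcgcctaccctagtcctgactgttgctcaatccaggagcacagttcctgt
The Gpnmb match begins 8 bases after the start of transcription and the Itgax match 56 bases before it. The Cd68 window holds TGANTCA at 2 places and GAGGAA, counting both strands, at 2. The Trem2 window holds each of these motifs once. No window is given for Dcstamp, Cd200r1 or Rgs1.

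In BAT, each of the 10 genes was lower in every KI-HFD library than in every WT-NC library, which was so for 6.24% of the 15726 genes tested. All 10 log2 fold changes were below 0, against 49.5% of genes. The median log2 fold change of KI-HFD over WT-NC was -3.33 for the 10 genes and 0.00 for all genes tested. With edgeR's quasi-likelihood test and Benjamini-Hochberg adjustment, Spp1 and Rgs1 fell, 2 of the 10, against 0.0445% of all genes tested, and the other 8 had adjusted p-values from 0.219 to 0.277. These 2 calls stood just inside the threshold, and 0 of the 10 passed with RLE factors, with library totals alone, with a term for the number series of the files or with all 12 libraries in 1 fit. At an unadjusted p under 0.05 all 10 were lower, against 4.76% of genes. Itgax, Dcstamp, Cd200r1 and Rgs1 passed the low-count filter in BAT only through WT-NC, so these BAT counts are partly set by it. In IWAT, 9 of the 10 log2 fold changes were below 0, against 45% of genes, with a median of -1.24 against 0.04 over all genes. Cd9, Dcstamp and Cd200r1, 3 of the 10, lay wholly below, against 8.31% of genes, and 0 of the 10 and 0% of the 15881 genes tested passed that threshold. At an unadjusted p under 0.05 the edgeR test gave 7 of the 10 as lower in IWAT, against 6.3% of all genes. Since the tissue was sequenced in bulk, fewer cells of a type and less RNA per cell cannot be told apart here.

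**Figure D1:**
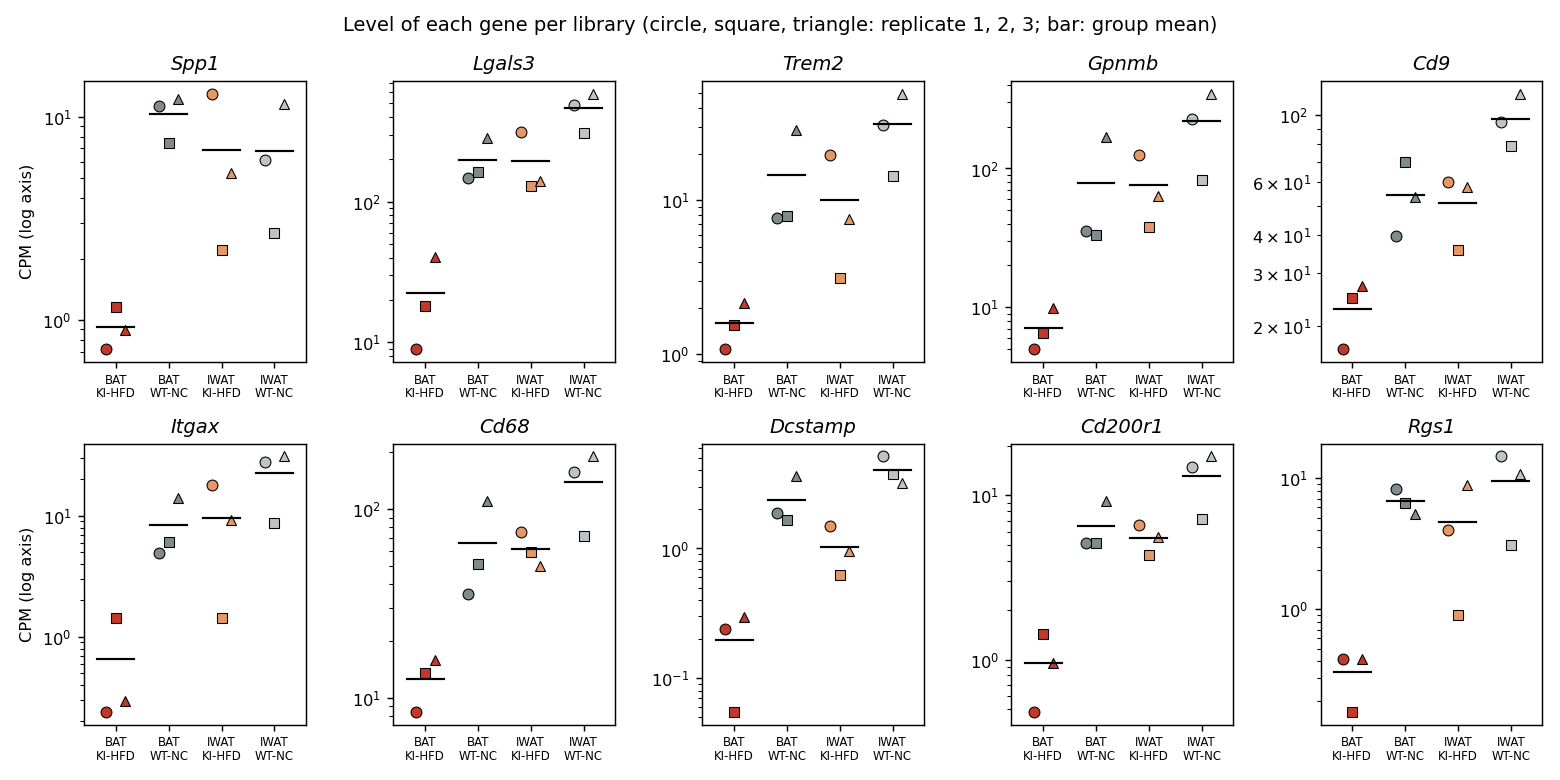
CPM on a log axis of the 10 genes in each library, with KI-HFD left of WT-NC within each depot; points are libraries and bars are the means of 3. In BAT every KI-HFD point of every gene lies below every WT-NC point, whereas in IWAT 7 of the 10 genes overlap between the groups.

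Among the secreted products, Spp1 encodes osteopontin, a phosphorylated glycoprotein that binds integrins and CD44 (chr5:104435118-104441050, plus strand, GRCm38). It stood at 0.720, 1.15 and 0.892 CPM in BAT KI-HFD, against 11.3, 7.46 and 12.2 CPM in BAT WT-NC. The WT-NC libraries lay close together and far above the KI-HFD ones, with a log2 fold change of -3.48 (SE 0.37; adjusted p = 0.0466 with edgeR). In IWAT the libraries held 13, 2.20 and 5.31 CPM in KI-HFD and 6.14, 2.69 and 11.6 CPM in WT-NC. These groups overlapped throughout and had nearly equal means, with a log2 fold change of 0.01 (SE 0.70; adjusted p = 0.998 with edgeR). Spp1 shares 309 exon bases with a predicted gene on its own strand, so reads in that stretch could not be assigned to 1 gene alone.

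Lgals3 encodes galectin-3, a lectin that binds galactose-containing glycans and damaged lysosomes (chr14:47367751-47386160, plus strand). Its BAT libraries held 8.94, 18 and 40.5 CPM in KI-HFD, against 147, 164 and 281 CPM in WT-NC. The highest KI-HFD library stayed well under the lowest WT-NC library, and the log2 fold change was -3.14 (SE 0.55). In IWAT it had 311, 130 and 140 CPM in KI-HFD, against 489, 309 and 585 CPM in WT-NC. The groups met at 1 pair of libraries, KI-HFD replicate 1 and WT-NC replicate 2, and the log2 fold change was -1.25 (SE 0.39; adjusted p = 0.371 with edgeR).

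Of the surface receptors, Trem2 encodes the lipid-sensing receptor itself (chr17:48346401-48354147, plus strand). Its level was 1.08, 1.54 and 2.14 CPM in BAT KI-HFD, against 7.72, 7.87 and 28.5 CPM in BAT WT-NC. WT-NC replicate 3 was high in Trem2, and the log2 fold change of -3.21 (SE 0.59) became -2.32 without it. In IWAT, KI-HFD held 19.7, 3.12 and 7.55 CPM and WT-NC 30.9, 14.5 and 49.3 CPM, with overlap and a log2 fold change of -1.64 (SE 0.67; adjusted p = 0.448 with edgeR).

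Gpnmb encodes a transmembrane glycoprotein of lysosome-rich cells whose gene is a known target of MITF (chr6:49036546-49070929, plus strand). In BAT it had 4.98, 6.54 and 9.88 CPM in KI-HFD, against 35.4, 33.0 and 168 CPM in WT-NC. WT-NC replicate 3 was again far above the other WT-NC libraries. The log2 fold change of -3.46 (SE 0.67) became -2.29 without that library. In IWAT, Gpnmb stood at 125, 37.8 and 63.5 CPM in KI-HFD, against 229, 82.3 and 346 CPM in WT-NC. KI-HFD replicate 1 lay above WT-NC replicate 2, and the log2 fold change was -1.53 (SE 0.58; adjusted p = 0.418 with edgeR).

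Cd9, a tetraspanin found on many cell types besides macrophages (chr6:125460266-125494791, minus strand), had the smallest BAT difference of the 10. It held 16.7, 24.7 and 27.0 CPM in KI-HFD, against 39.6, 69.7 and 53.4 CPM in WT-NC, with a log2 fold change of -1.26 (SE 0.28). In IWAT the groups did not overlap either, with 59.9, 35.7 and 57.6 CPM in KI-HFD and 94.6, 78.6 and 117 CPM in WT-NC (log2 fold change -0.92, SE 0.23, edgeR adjusted p = 0.297). Cd9 shares 218 exon bases with a gene on the opposite strand, and because the library kit did not mark strand, reads of both cannot be told apart there.

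Itgax encodes the integrin subunit CD11c of macrophages and dendritic cells (chr7:128129547-128150657, plus strand). It rested on only 4, 26 and 5 counts in BAT KI-HFD, which were 0.240, 1.43 and 0.297 CPM, against 4.92, 6.12 and 14.2 CPM in BAT WT-NC. KI-HFD replicate 2 stood above the other KI-HFD libraries, and the log2 fold change was -3.66 (SE 0.75). In IWAT it ranged from 1.44 to 17.8 CPM in KI-HFD and from 8.66 to 31.0 CPM in WT-NC, with overlap (log2 fold change -1.24, SE 0.80, edgeR adjusted p = 0.614).

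Cd200r1 encodes the inhibitory receptor for CD200 (chr16:44765736-44794978, plus strand). It had 0.480, 1.43 and 0.952 CPM in BAT KI-HFD, against 5.15, 5.11 and 9.28 CPM in BAT WT-NC (log2 fold change -2.77, SE 0.50). In IWAT it was one of the few members without overlap, at 6.63, 4.31 and 5.59 CPM in KI-HFD and 14.9, 7.19 and 17.3 CPM in WT-NC (log2 fold change -1.25, SE 0.36, edgeR adjusted p = 0.337). The gene belongs to a family of closely similar receptors, so its counts are uncertain where reads fit several of them. Its ligand gene Cd200 averaged 90.7 CPM in BAT KI-HFD and 79.2 CPM in BAT WT-NC, with no passing test.

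Cd68 encodes a heavily glycosylated lysosomal membrane protein of macrophages (chr11:69664213-69666153, minus strand). Its BAT libraries held 8.40, 13.5 and 15.9 CPM in KI-HFD, against 35.5, 51.4 and 110 CPM in WT-NC, a log2 fold change of -2.39 (SE 0.44). In IWAT it had 75.6, 59.5 and 49.7 CPM in KI-HFD, against 157, 71.7 and 190 CPM in WT-NC. A single WT-NC library, replicate 2, lay within the KI-HFD range, and the log2 fold change was -1.18 (SE 0.34; adjusted p = 0.344 with edgeR).

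Dcstamp encodes a membrane protein needed for the fusion of macrophages and osteoclasts into multinucleate cells (chr15:39745930-39760938, plus strand). It was the scarcest of the 10, with 4, 1 and 5 counts in the BAT KI-HFD libraries, against 33, 36 and 77 counts in BAT WT-NC. In CPM these were 0.240, 0.0550 and 0.297 in KI-HFD, against 1.89, 1.66 and 3.61 in WT-NC (log2 fold change -3.57, SE 0.70). In IWAT, KI-HFD held 1.48, 0.623 and 0.959 CPM and WT-NC 5.12, 3.74 and 3.17 CPM. The groups did not overlap, and the log2 fold change of -1.97 (SE 0.41; adjusted p = 0.242 with edgeR) was the lowest of the 10 in that depot.

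Rgs1 encodes a GTPase activator that shortens signalling from chemokine receptors (chr1:144242296-144249242, minus strand). It had the lowest log2 fold change of the 10 in BAT, -4.34 (SE 0.50; adjusted p = 0.0466 with edgeR). The counts were 7, 3 and 7 in KI-HFD, against 146, 142 and 114 in WT-NC, or 0.420, 0.165 and 0.416 CPM against 8.35, 6.54 and 5.34 CPM. The highest library was 1.56 times the lowest in WT-NC and 2.55 times the lowest in KI-HFD, where the counts were few. In IWAT, Rgs1 had 4.03, 0.911 and 8.87 CPM in KI-HFD, against 14.7, 3.11 and 10.8 CPM in WT-NC. The groups overlapped, and the log2 fold change was -1.04 (SE 0.80; adjusted p = 0.668 with edgeR). Its highest IWAT KI-HFD library was replicate 3, the library with the lymphocyte transcripts, and Rgs1 is also known from activated lymphocytes. The part of those cells in that value was not tested.

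**Figure D2:**
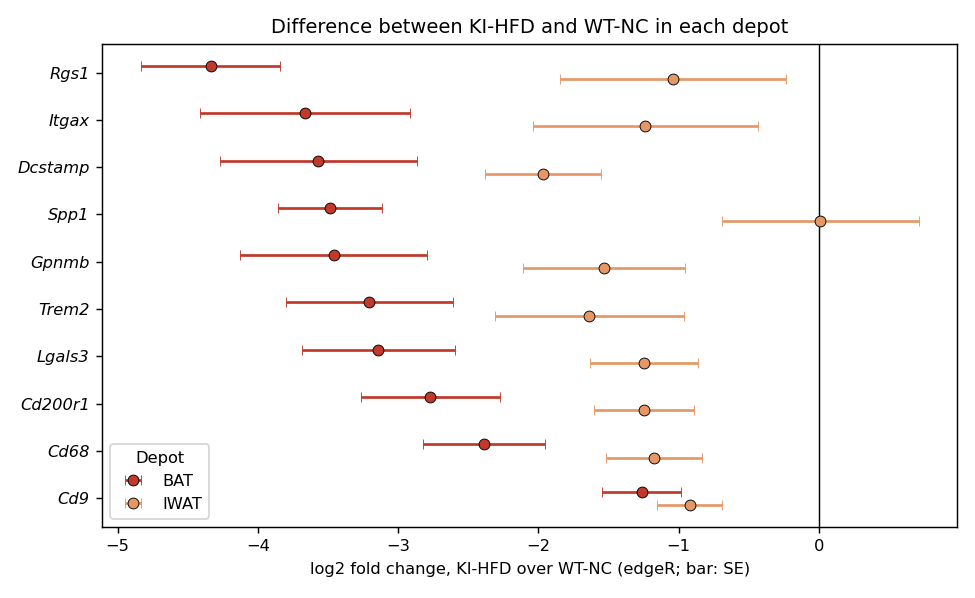
Log2 fold change of KI-HFD over WT-NC for each of the 10 genes in BAT and in IWAT, with bars of 1 SE. The SE was back-calculated from edgeR's F statistic, and the zero line marks no difference. The BAT values run from -4.34 (Rgs1) to -1.26 (Cd9) and the IWAT values from -1.97 (Dcstamp) to 0.01 (Spp1).

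With any 1 of the 6 BAT libraries left out, 0 of the 10 genes passed, while the log2 fold change was -3.67 to -3.34 for Spp1 and -4.54 to -3.99 for Rgs1. DESeq2 on the same counts called all 10 lower in BAT (1.23% of all genes) and 5 lower in IWAT (1.48%). Without BAT WT-NC replicate 3, the median of the 10 was -2.63, with every log2 fold change still below 0. The 4 libraries of each depot whose deposited files carry low numbers gave medians of -2.29 in BAT and -0.93 in IWAT, with 0 calls among the 10, and what that number stands for is not given in the sources used here.

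The authors' deposited table, which lists adjusted p-values from DESeq2, had all 10 genes under 0.05 in BAT, against 1.47% of the 16794 genes with an adjusted p. In that table the BAT log2 fold changes ran from -3.22 (Rgs1) to -1.13 (Cd9). In IWAT the authors' deposited table had 5 of the 10 under 0.05, against 2.22% of 15080 genes. These 5 were Lgals3, Cd9, Cd68, Dcstamp and Cd200r1, and in the authors' deposited table Spp1 stood at 0.00 in that depot.

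Set side by side across the 4 groups, BAT KI-HFD was lowest for all 10 genes. Every BAT KI-HFD library lay below every IWAT KI-HFD library for all 10, which was so for 24.2% of genes. On normal chow, BAT WT-NC lay wholly below IWAT WT-NC for Lgals3 and Cd9, 2 of the 10, against 23.7% of genes, and the other 8 overlapped. By their means, 8 of the 10 ran from IWAT WT-NC through BAT WT-NC and IWAT KI-HFD to BAT KI-HFD. Itgax had IWAT KI-HFD above BAT WT-NC, and Spp1 had its highest mean in BAT WT-NC, at 10.3 ± 2.51 CPM (SD, n = 3), next to 6.84 ± 5.56 CPM in IWAT KI-HFD and 6.82 ± 4.50 CPM in IWAT WT-NC. The neighbours in the middle of these orders overlapped for every gene but Dcstamp, for which every BAT WT-NC library was above every IWAT KI-HFD library. Lgals3, for example, averaged 194 ± 102 CPM in IWAT KI-HFD and 197 ± 73.3 CPM in BAT WT-NC (SD, n = 3 each).

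The log2 fold change was lower in BAT than in IWAT for all 10 genes, against 52.2% of the 17395 genes fitted, with a median difference of -1.74 against -0.02 over those genes. Tested as the depot by group term over the 12 libraries together, 0 of the 10 and 0% of all genes passed edgeR's adjusted threshold, with adjusted p-values of 0.762 to 1.00 for the 10. At an unadjusted p under 0.05 it gave 4 of the 10 as lower in BAT, against 2.73% of all genes. DESeq2 called 1 of the 10, Spp1, against 0.0747% of all genes in that direction. The Spp1 difference was -3.48 (SE 0.88) on the log2 scale and the Rgs1 difference -3.27 (SE 1.05), while that of Cd9 was -0.33 (SE 0.38). All of these fits took the BAT and IWAT libraries as unpaired. Some BAT and IWAT libraries of the same group carry the same deposited number, and whether they come from the same mouse is not stated. With that number as a block in edgeR, 0 of the 10 passed in either direction.

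Per kilobase of the principal transcript, the 10 genes differed widely in level. In BAT WT-NC the mean was 139 CPM per kb for Lgals3, 53.5 for Cd68, 44.2 for Cd9, 21.3 for Gpnmb and 13.5 for Trem2, and from 6.84 CPM per kb (Spp1) to 1.19 CPM per kb (Dcstamp) for the rest. In BAT KI-HFD the mean was 18.6 CPM per kb for Cd9, 15.8 for Lgals3 and 10.2 for Cd68, and Gpnmb was at 1.93 and Rgs1 at 0.0869 CPM per kb. Cd9, the gene with the smallest fold change, thus headed the order in BAT KI-HFD alone, and Lgals3 headed it in the other 3 groups. Lgals3, Gpnmb, Cd68 and Cd9 made up 86.8 to 95.4% of the summed CPM of the 10 in every library.

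The summed CPM of the 10 was 42.3, 68.5 and 98.3 in BAT KI-HFD, against 297, 352 and 686 in BAT WT-NC. It was 635, 275 and 349 in IWAT KI-HFD, against 1069, 581 and 1361 in IWAT WT-NC. Single libraries were high or low in most members at once. BAT WT-NC replicate 3 was the highest of its group for 8 of the 10 genes, all but Cd9 and Rgs1, and BAT KI-HFD replicate 1 the lowest of its group for 8. In IWAT, KI-HFD replicate 1 was highest and KI-HFD replicate 2 lowest for 9 of the 10 each, while WT-NC replicate 2 was lowest for 9. That last library is the one with the epithelial transcripts, and BAT WT-NC replicate 3 is the BAT library with the fewest muscle transcripts.

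**Figure D3:**
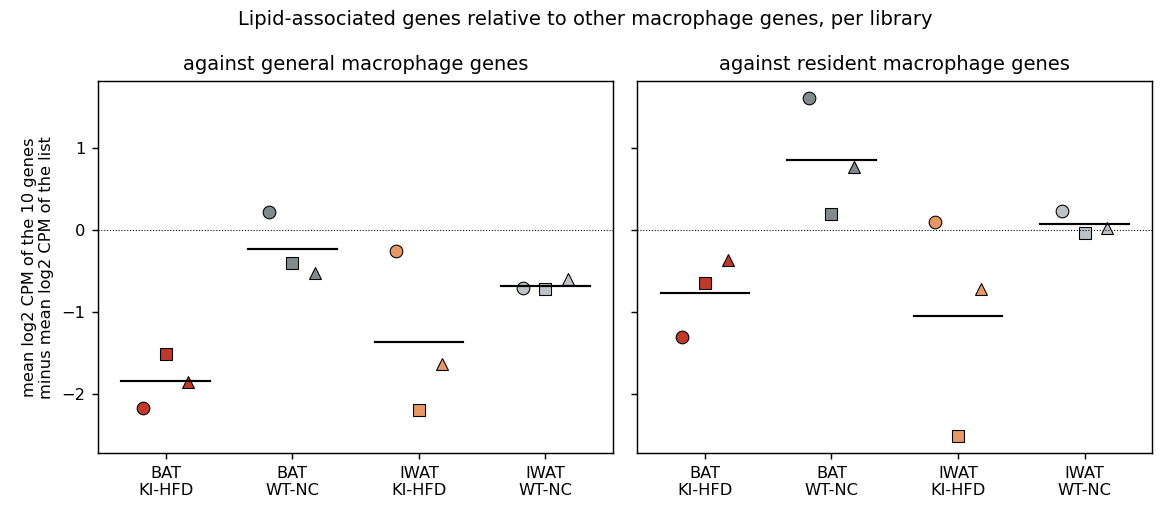
Mean log2 CPM of the 10 genes minus the mean log2 CPM of 17 general macrophage and monocyte genes, and minus that of 14 resident macrophage genes, in each library, with KI-HFD left of WT-NC; points are libraries and bars are means of 3. In BAT the KI-HFD points lie below the WT-NC points on both measures, and in IWAT they overlap on both.

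Set against the mean of other macrophage transcripts in the same BAT libraries, the mean of the 10 genes was lower in KI-HFD. Their mean log2 CPM minus that of 17 general macrophage and monocyte genes was -2.18, -1.51 and -1.85 in BAT KI-HFD, against 0.22, -0.40 and -0.53 in BAT WT-NC. The groups did not overlap, and their means were -1.85 ± 0.33 in KI-HFD and -0.24 ± 0.40 in WT-NC (SD, n = 3 each). Against 14 resident macrophage genes the values were -0.77 ± 0.48 in BAT KI-HFD and 0.86 ± 0.71 in BAT WT-NC, again without overlap. Set against Adgre1 alone, the gene of the macrophage antigen F4/80, the groups overlapped in BAT for 8 of the 10 genes. Gpnmb and Rgs1 did not overlap there, and in IWAT all 10 overlapped. The mean ratio to Adgre1 was lower in KI-HFD for all 10 in BAT and for 4 of the 10 in IWAT. The shares of all genes on this ratio were not computed, so these counts have no background beside them. Lgals3 had 1.03 to 6.42 counts per Adgre1 count in BAT KI-HFD and 3.61 to 23.0 in BAT WT-NC, and Cd9 averaged 4.09 in BAT KI-HFD and 4.10 in BAT WT-NC. Adgre1 itself averaged 6.36 ± 2.32 CPM in BAT KI-HFD and 32.4 ± 39.6 CPM in BAT WT-NC (SD, n = 3 each). In IWAT, Adgre1 averaged 32.8 ± 0.135 CPM in KI-HFD and 91.7 ± 54.6 CPM in WT-NC (SD, n = 3 each). Its IWAT log2 fold change was -1.48 (edgeR adjusted p = 0.343). In IWAT the difference to the general genes was -0.25, -2.20 and -1.64 in KI-HFD, against -0.71, -0.73 and -0.59 in WT-NC. KI-HFD replicate 1 lay above all WT-NC libraries and the other KI-HFD libraries below them, so the groups overlapped. KI-HFD replicate 3, at -1.64, is the library rich in lymphocyte transcripts. The part of lymphocytes in its mean of the general genes was not tested. No test is given for these differences, since the 10 genes were chosen with their levels known.

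The lists of general and resident macrophage genes also had log2 fold changes below 0 in BAT for the most part, with medians nearer to 0 and no call within them. Of the 17 general macrophage and monocyte genes, 16 had a BAT log2 fold change below 0, against 49.5% of all genes, and the median was -1.63. In KI-HFD 8 lay wholly below, against 6.24% of all genes, and 0 passed the test. Ctss, the lysosomal protease cathepsin S, averaged 18.1 ± 5.36 CPM in BAT KI-HFD and 103 ± 53.4 CPM in BAT WT-NC (SD, n = 3 each; log2 fold change -2.51, edgeR adjusted p = 0.162). Fcgr1, the high-affinity IgG receptor, had a log2 fold change of -2.95 and Itgam, the integrin subunit CD11b, one of -2.46 (edgeR adjusted p = 0.277 for each). Fcgr1 had at most 10 counts in a BAT KI-HFD library, and Itgam stood at 0.420 CPM in the lowest. Both passed the low-count filter in BAT only through WT-NC, so their separation and the count of 8 are partly set by the filter. Lyz2, the macrophage lysozyme, averaged 119 CPM in BAT KI-HFD and 473 CPM in BAT WT-NC. The summed CPM of the list was 278 to 381 in BAT KI-HFD and 442 to 1863 in BAT WT-NC, and 1175 to 2025 in IWAT KI-HFD and 1187 to 2955 in IWAT WT-NC. Without BAT WT-NC replicate 3, the BAT median of these genes was -0.96.

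Of 14 resident macrophage genes, 13 were tested in BAT. All 13 had a log2 fold change below 0, against 49.5% of all genes, with a median of -1.44. Of these, 5 lay wholly below, against 6.24% of all genes, and 0 passed the test. Pf4, a platelet factor also made by resident macrophages, had -1.75 (edgeR adjusted p = 0.261), Cbr2, a carbonyl reductase, -1.64 (edgeR adjusted p = 0.293) and Stab1, a scavenger receptor, -0.84 (edgeR adjusted p = 0.380). F13a1, coagulation factor XIII subunit A, averaged 12 CPM in BAT KI-HFD and 40.1 CPM in BAT WT-NC. Vsig4, which was not tested in BAT, was at 0 in all BAT KI-HFD libraries. It was also scarce in BAT WT-NC, at 0.0921 to 0.750 CPM and at most 16 counts. The list summed to 164 to 169 CPM in BAT KI-HFD and 212 to 466 CPM in BAT WT-NC, and to 539 to 1043 CPM in IWAT KI-HFD and 505 to 1058 CPM in IWAT WT-NC. In IWAT the median of the 14 resident genes was -0.20 and that of the 17 general genes -0.61, with 0 calls.

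A further 20 genes associated with lipid-laden macrophages lay on both sides of 0. In BAT 12 of the 20 had a log2 fold change below 0, against 49.5% of all genes, and the median was -0.45. In KI-HFD 5 lay wholly below, against 6.24% of all genes, 2 wholly above, against 6.94%, and 0 passed the test. Mmp12, macrophage elastase, averaged 2.99 ± 2.04 CPM in BAT KI-HFD and 86.2 ± 45.3 CPM in BAT WT-NC (SD, n = 3 each; log2 fold change -4.85, SE 0.69, edgeR adjusted p = 0.0983), further apart on the log2 scale than any of the 10. Capg, an actin-capping protein, had 15.6 ± 6.73 CPM in BAT KI-HFD and 60.2 ± 14.6 CPM in BAT WT-NC. Cd84, a SLAM-family receptor, had a log2 fold change of -2.34 (edgeR adjusted p = 0.261) and Soat1, which esterifies cholesterol for storage, one of -1.81 (edgeR adjusted p = 0.277). Atp6v0d2, a subunit of the lysosomal proton pump chosen here after its value was seen, averaged 0.812 CPM in BAT KI-HFD and 16.8 CPM in BAT WT-NC. It was at 0 CPM in its lowest BAT KI-HFD library and passed the low-count filter there only through WT-NC. As 1 of the 5 wholly below, it makes that count partly set by the filter.

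Others of the 20 did not share that pattern, and they too were chosen after their values were seen. Acp5, tartrate-resistant acid phosphatase, averaged 267 CPM in BAT KI-HFD and 152 CPM in BAT WT-NC without overlap (log2 fold change 0.81, edgeR adjusted p = 0.491). Plin2, which coats lipid droplets, averaged 1933 CPM in BAT KI-HFD and 1886 CPM in BAT WT-NC, and it is also made by adipocytes. In IWAT 17 of the 20 were below 0, against 45% of all genes, with a median of -0.71 and 0 calls. There Apoe, the lipid-carrying apolipoprotein E, lay wholly above in KI-HFD, as did 8.2% of all genes, at 5367 ± 1448 CPM in KI-HFD and 2837 ± 116 CPM in WT-NC (SD, n = 3 each; log2 fold change 0.92, edgeR adjusted p = 0.350).

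Among 12 genes of TREM2's adaptor and signalling chain, 11 were below 0 in BAT, against 49.5% of all genes, and 4 in IWAT, against 45%. The medians were -1.13 in BAT and 0.10 in IWAT, with 0 calls in either. In BAT 5 of the 12 lay wholly below, against 6.24% of all genes, and in IWAT 1, against 8.31%. Tyrobp, the adaptor that TREM2 signals through, was that 1 in IWAT and among the 5 in BAT. It averaged 11 ± 4.85 CPM in BAT KI-HFD and 33.8 ± 14.6 CPM in BAT WT-NC, and 33.1 ± 2.48 CPM in IWAT KI-HFD and 62.8 ± 23.9 CPM in IWAT WT-NC (SD, n = 3 each). The kinase genes Syk and Btk and the exchange factor gene Vav1 had BAT log2 fold changes of -1.55, -2.29 and -2.56 (edgeR adjusted p = 0.389, 0.277 and 0.277). In IWAT these 3 averaged 39.6, 11.6 and 22.7 CPM in KI-HFD, against 37.2, 9.68 and 14.6 CPM in WT-NC. Without IWAT KI-HFD replicate 3, the library rich in lymphocyte transcripts, the IWAT median of the 12 was -0.87. The part of lymphocytes in these values was not tested.

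Of 15 partners and receptors of the proteins encoded by the 10 genes, 13 were tested in BAT and 14 in IWAT, with medians of -0.21 in BAT and -0.33 in IWAT and 0 calls. Cd44, a receptor for osteopontin and hyaluronan, averaged 5.17 ± 1.29 CPM in BAT KI-HFD and 25.1 ± 10.1 CPM in BAT WT-NC (log2 fold change -2.29, edgeR adjusted p = 0.178). Itgb2, the partner chain of the Itgax product, averaged 6.23 ± 1.69 CPM in BAT KI-HFD and 34.9 ± 26.0 CPM in BAT WT-NC (log2 fold change -2.49, edgeR adjusted p = 0.277). Itga9, another osteopontin receptor subunit, had -0.86 and Ptgfrn, a partner of CD9, -0.48, both with overlap in BAT.

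**Figure D4:**
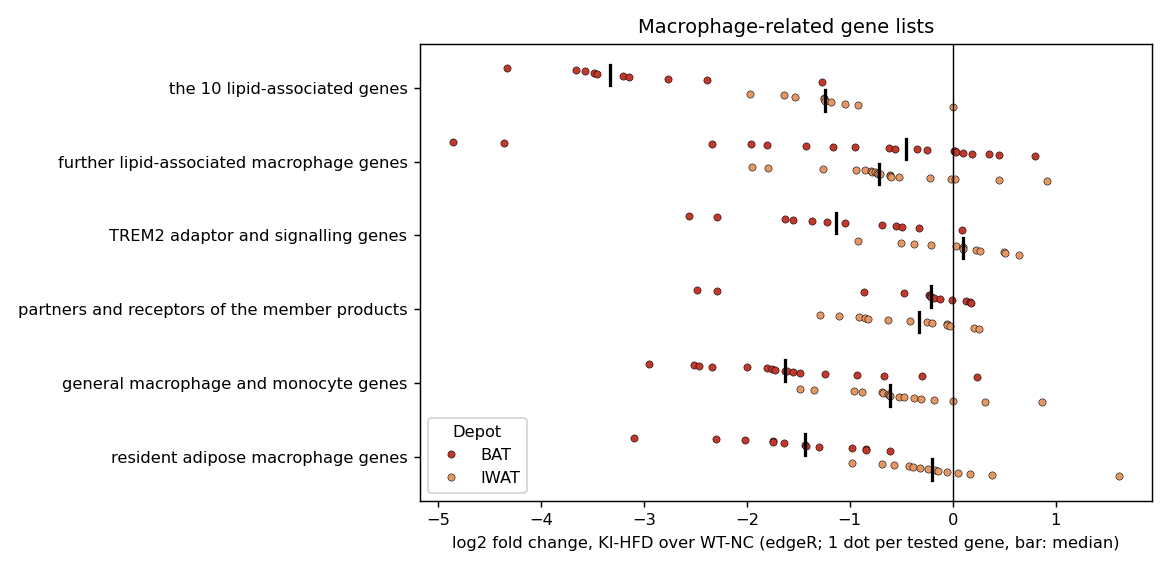
Log2 fold change of KI-HFD over WT-NC (edgeR) of each tested gene in BAT (red) and in IWAT (orange) for the 10 genes and 5 lists of macrophage-related genes, with a black bar at each median and a line at 0. In BAT the 10 genes have a median of -3.33, the general macrophage list -1.63 and the resident list -1.44.

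Genes of other cell types gave these values beside them. The median BAT log2 fold change was -0.10 for 8 dendritic cell genes, -0.08 for 6 osteoclast genes and -0.49 for 9 lymphocyte genes, with 0 calls in each. Of 7 neutrophil genes, Ly6g and Mpo were at 0 in BAT KI-HFD and in both IWAT groups. In BAT WT-NC these 2 had at most 1 count in a library, so they were near absent throughout. The 3 neutrophil genes tested had a BAT median of -1.04. Fibroblast genes had a BAT median of -0.98, endothelial genes -0.05, muscle genes -1.76, adipocyte genes 0.43 and brown adipocyte genes 0.65. In IWAT the medians were 0.25 for dendritic cell, -0.17 for osteoclast, -0.69 for neutrophil, 1.90 for lymphocyte, -0.10 for fibroblast, -0.78 for endothelial, -3.23 for muscle, 0.27 for adipocyte and -0.50 for brown adipocyte genes. Of the mesothelial genes 1 was tested in BAT (1.35) and 2 in IWAT (median -0.47), and no epithelial gene was tested. Several of these medians hung on 1 library. In BAT the muscle median was -0.12 without WT-NC replicate 2, the fibroblast median -0.40 and the lymphocyte median 0.02 without WT-NC replicate 3, and the dendritic cell median -0.66 without KI-HFD replicate 3. In IWAT without KI-HFD replicate 3 the lymphocyte median was -2.22, the dendritic cell median -0.94, the neutrophil median -1.51 and the muscle median -5.15. Without IWAT WT-NC replicate 3 the brown adipocyte median was 0.17 and the muscle median -1.71, without IWAT WT-NC replicate 2 the mesothelial median was 0.92, and without IWAT KI-HFD replicate 1 the osteoclast median was 0.15.

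The genes outside the 10 whose profiles over the 12 libraries came nearest to the mean profile of the 10 were Ccl7, Adam8, Ccl2, Ctss and Cd44. Nearness was the root mean square difference of centred log2 CPM, which was 0.29 for Ccl7, 0.34 for Adam8, 0.39 for Ccl2 and Ctss and 0.40 for Cd44, against a median of 1.59 over 17395 genes. The 10 genes themselves lay between 0.31 (Cd200r1) and 0.81 (Cd9) from their own mean, which they help to form. Ccl2 and Ccl7 encode chemokines that attract monocytes, and Adam8 encodes a membrane metalloprotease of myeloid cells. Ccl7 averaged 1.65 ± 0.461 CPM in BAT KI-HFD and 15.2 ± 2.71 CPM in BAT WT-NC, and 12.4 ± 6.63 CPM in IWAT KI-HFD and 25.2 ± 11.4 CPM in IWAT WT-NC (SD, n = 3 each). Adam8 averaged 2.10 ± 0.780 CPM in BAT KI-HFD and 25.8 ± 9.99 CPM in BAT WT-NC, and Ccl2 1.79 ± 0.767 CPM in BAT KI-HFD and 19.0 ± 1.57 CPM in BAT WT-NC. These 3 were, with Spp1 and Rgs1, among the 7 genes called in BAT (edgeR adjusted p = 0.0466 for each), and they were picked here for likeness in the same libraries.

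**Figure D5:**
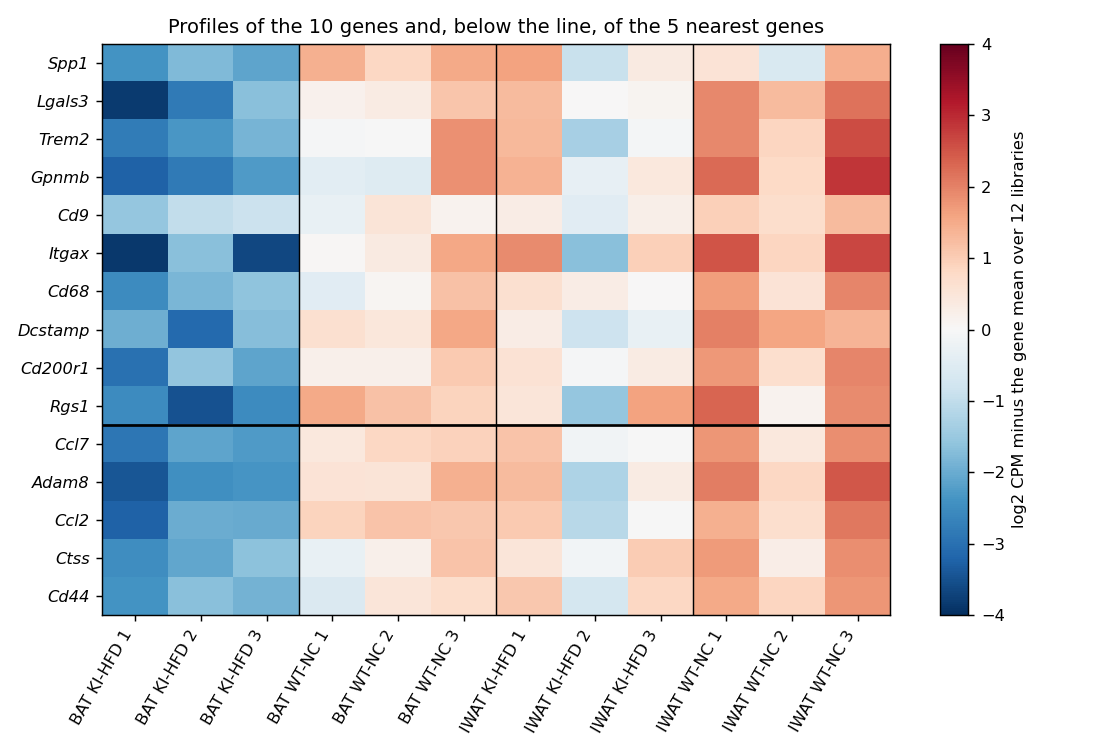
Heat map of log2 CPM minus the gene's own mean over the 12 libraries, for the 10 genes above the line and the 5 nearest other genes below it, with libraries as columns and KI-HFD left of WT-NC in each depot. Every gene shown is below its mean in the BAT KI-HFD libraries and above it in IWAT WT-NC replicate 3. The mean of the 10 genes ran from -2.76 in BAT KI-HFD replicate 1 to 2.02 in IWAT WT-NC replicate 3.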

How the data were processed

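The deposited files hold read counts per gene for 12 libraries. The submitters' processing notes name FastQC, the aligner STAR, the counter HTSeq and DESeq2 without versions, and the build GRCm38.p5. The libraries were poly-A enriched, single end and not stranded, per the labels' protocols. The authors also deposited their own comparison of KI with WT in each depot. Per the file headers, it gives each gene's base mean as a signal over the depot's libraries, then log2 of the fold change with standard error, the Wald score and the p-value before and after adjustment. Whether its fold changes were shrunken is not stated.

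Names and positions came from GENCODE M21, which matched all 55536 gene identifiers. In the BAT files 5 tallies of reads without a gene were left out, among them 4.99 to 11.6% in no gene and 22.7 to 31.6% without a unique alignment. Genes were kept with filterByExpr (minimum count 10) and tested within each depot with edgeR 4.0.16 (R 4.3.3, TMM scaling, quasi-likelihood test), with two-sided p-values adjusted by Benjamini-Hochberg over all genes tested at a threshold of 0.05. The difference between depots was tested as the depot by group term over the 12 libraries together, taken as unpaired. The SE given with edgeR fold changes is the absolute log2 fold change divided by the square root of the test's F statistic. DESeq2 1.42.0 was an alternative. CPM came from 1 TMM scaling over the 12 libraries. CPM per kb used the length of the longest APPRIS principal coding transcript, and log2 CPM a prior count of 2. The edgeR and DESeq2 fits were also run on simulated counts with known changes, and the outcome of those runs is not given here.

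The members and all lists were chosen with earlier results of these data known. Besides the 10 members, up to 4 genes of each list with the lowest p in BAT and the 5 genes of nearest profile were named, and other names were chosen after their values were seen. No 2 libraries of a group agreed within sampling noise (chi-square per degree of freedom 34.3 to 337). Deviations of libraries with the same replicate number in the titles had correlations of -0.23 to 0.22 in BAT and -0.09 to 0.23 in IWAT. For libraries with other numbers they were -0.28 to 0.14 in BAT and -0.28 to 0.12 in IWAT. With 3 libraries in a group these values cannot decide whether the numbers pair the libraries, which were taken as unpaired.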

Additional observations from a re-analysis of the deposited data

Results flagged for a closer look

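Elovl3, which elongates fatty acids in brown fat and stood in the brown adipocyte list, had log2 fold changes of opposite sign in BAT and IWAT, with no passing test. Its log2 fold change of KI-HFD over WT-NC was 1.58 in BAT (SE 0.44, edgeR adjusted p = 0.389) and -2.76 in IWAT (SE 0.58, edgeR adjusted p = 0.243). It was flagged because KI-HFD lay wholly above in BAT and wholly below in IWAT, so that separation is the rule of choice and no evidence. Of all genes, 6.94% lay wholly above in BAT and 8.31% wholly below in IWAT. At 0.288 CPM in its lowest IWAT KI-HFD library, Elovl3 passed the low-count filter in IWAT only through WT-NC. In BAT it averaged 422.5 CPM in KI-HFD and 140.5 CPM in WT-NC. In IWAT it averaged 0.729 CPM in KI-HFD, with at most 29 counts in a library, and 4.97 CPM in WT-NC. The interaction was 4.34 (SE 0.73) with an unadjusted edgeR p of 6.44e-05 and an adjusted p of 0.463 over all genes tested, so the difference fails the correction.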

How the results depend on the processing

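Counts of called genes depended on the method more than the direction of the members did. In BAT, 7 genes and 2 of the 10 members were called. These counts were 269 and 10 with DESeq2, 0 and 0 with RLE factors, 0 and 0 with library totals alone, 207 and 10 without the low-count filter, 0 and 0 with a term for the number series of the files, 0 and 0 with all 12 libraries in 1 fit, 1 and 0 in the low number series, and 0 to 2 and 0 with 1 library left out. With the replicate block, 11 genes and 2 members were called in BAT. Whether the title numbers pair the libraries could not be decided, so this block groups them by number only. All 140 alternatives for single members kept a BAT log2 fold change below 0. The BAT member median of -3.33 was -2.29 in the low number series and -3.59 to -2.63 with 1 library left out. In IWAT, where 0 genes and 0 members were called, DESeq2 called 341 and 5, library totals 2 genes, no filter 45, all 12 libraries in 1 fit 1, and leaving out 1 library 0 to 10. The IWAT median of -1.24 was -1.59 to -0.97 with 1 library left out. Spp1 in IWAT, at 0.01, was -0.0902 with library totals, -0.11 with the replicate block and -0.87 to 0.63 with 1 library left out. For the interaction, with 0 genes and 0 members called, DESeq2 gave 28 and 1, no filter 33 and 1, and leaving out 1 library 0 and 0, with a median of -2.07 to -1.17 around -1.74. With 1 library left out, mean summed CPM of the members spanned 55.4 to 83.4 in BAT KI-HFD, 325 to 519 in BAT WT-NC, 312 to 492 in IWAT KI-HFD and 825 to 1215 in IWAT WT-NC. The members' level relative to general macrophage genes, as KI-HFD minus WT-NC on the log2 scale, was -1.61 in BAT (-1.78 to -1.38) and -0.69 in IWAT (-1.24 to -0.27). The causes of these differences between methods were not tested. With 3 libraries a group, and under 10 counts in the BAT KI-HFD libraries for Dcstamp and Rgs1, sizes of the lowest members are imprecise.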
